A study of Mus musculus with 36 samples.

Results

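Mki67, Birc5, Hells and Shmt2 are 4 proliferation genes among the 988 genes of a targeted mouse immuno-oncology panel, in which each gene is read through its own amplicon. They were chosen by name with earlier results of these same data known. In those results Shmt2 and Hells were among the genes with the smallest p for Kit sash mutant against wild-type carcinogen-induced tumours. That contrast is therefore given as a description with no test, as are the comparisons of tumours with lesions and the difference of differences, which use the same tumour libraries. Results of the other comparisons were also known when the genes were chosen, so a p-value for them below is no independent support. All 4 genes passed the filter on low counts in all 9 comparisons made.

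The study set mice carrying the Kit "sash" mutation (Kit-W/sh), which leaves adult mice short of mast cells, against wild-type mice, and tested cromolyn, a drug used to keep mast cells from degranulating. Colon tumours came from C57BL/6 mice of either genotype at 32 weeks of age (5 libraries each), which had received 6 injections of the colon carcinogen azoxymethane (AOM), 10 mg/kg each week, the last 18 weeks earlier. Preneoplastic colon lesions came from mice of either genotype at 14 weeks of age (3 libraries each), after 3 AOM injections over 3 weeks and 3 further weeks. A separate cromolyn experiment in 14-week-old wild-type mice had 3 groups of 3 libraries. These were AOM only, cromolyn given together with AOM for 3 weeks, and cromolyn given for 3 weeks after AOM. The AOM-only mice had 3 AOM injections over 3 weeks and 3 further weeks. Both cromolyn groups had 3 weeks of AOM and 3 weeks after the last AOM, and their number of injections was not found in the labels. The MC-38 libraries came from tumours of the transplanted MC-38 mouse colon carcinoma line in wild-type (4 libraries) and sash hosts (5 libraries). The labels give these hosts saline and state neither age nor AOM, and MC-38 replicate 2 of the wild-type hosts and replicate 3 of the sash hosts were not analysed here. The Kit mutation is carried by the host in every cell, so cells other than mast cells that use Kit carry it as well, and MC-38 is 1 cell line. The labels do not say that libraries of a group came from separate mice, so p-values measure the spread between these libraries, which may be technical.

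A dividing cell copies its DNA in S phase and segregates it in mitosis, and the genes that serve these steps are switched on in turn. Mki67 encodes Ki-67, the nuclear protein used by pathologists to mark cycling cells, which coats mitotic chromosomes. Birc5 encodes survivin, a subunit of the chromosomal passenger complex of mitosis that is also counted among the inhibitors of apoptosis. Hells encodes a chromatin remodeller that supports DNA methylation and is made mostly as cells replicate their DNA. Shmt2 encodes the mitochondrial serine hydroxymethyltransferase, which splits serine to feed one-carbon units into nucleotide synthesis. It is a metabolic enzyme used by proliferating cells, and not a part of the division machinery. In the normal colon, dividing cells sit in the lower crypt, and the cells of the surface have left the cycle.

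The promoters of the 4 genes are shown because division genes are commonly controlled through short promoter elements. The 170 bases before each start site were taken from RefSeq on build GRCm38.p6, where all 4 genes matched by symbol. Both strands of the 250 bases before the start were searched for 6 kinds of element. The CCAAT box was searched by that name's letters, and the GC box as GGGCGG. The cell cycle homology region, or CHR, was searched as TTTGAA together with its variant form TTTAAA and the further variant form TTCGAA. An E2F-like site was any of 4 forms, namely GCGGGAA, then the longer form GGCGGGAA, then the form written TTTGGCGC, and last the form written TTTCGCGC. The amino acid response element was searched as TGATGNAAN, and the E-box as CACGTG. The form GGCGGGAA contains the shorter form GCGGGAA, so both can match at 1 place. Capitals mark the matches.
Mki67, chr7:135716380-135716549, minus strand: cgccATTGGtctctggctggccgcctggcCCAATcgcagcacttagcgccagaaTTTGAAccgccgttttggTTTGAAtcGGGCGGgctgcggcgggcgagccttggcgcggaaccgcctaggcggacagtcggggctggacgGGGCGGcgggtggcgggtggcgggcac
Birc5, chr11:117849067-117849236, plus strand: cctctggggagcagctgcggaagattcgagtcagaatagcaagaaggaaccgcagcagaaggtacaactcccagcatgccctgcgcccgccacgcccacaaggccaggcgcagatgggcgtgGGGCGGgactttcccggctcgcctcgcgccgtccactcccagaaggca
Hells, chr19:38930820-38930989, plus strand: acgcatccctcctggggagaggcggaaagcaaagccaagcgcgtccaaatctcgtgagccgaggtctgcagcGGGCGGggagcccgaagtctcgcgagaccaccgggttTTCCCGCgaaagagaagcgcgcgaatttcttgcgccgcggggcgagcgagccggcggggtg
Shmt2, chr10:127522445-127522614, minus strand: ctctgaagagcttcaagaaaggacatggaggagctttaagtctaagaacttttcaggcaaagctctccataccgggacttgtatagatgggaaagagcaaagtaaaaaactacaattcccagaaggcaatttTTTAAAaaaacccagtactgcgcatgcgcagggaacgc
The Mki67 stretch held 2 CCAAT boxes on opposite strands, 2 TTTGAA and 2 GC boxes, and 1 more CCAAT box lay 188 bases before the start. The Birc5 stretch held 1 GC box, with a TTTAAA beginning 220 bases before the start and another GC box 193 bases before it. The Hells stretch held 1 GC box and 1 E2F-like GCGGGAA on the opposite strand. The Shmt2 stretch held 1 TTTAAA, beginning 38 bases before the start. Among the 32851 mouse promoters of the same length, 33.8% held a CCAAT box, 26.2% a CHR, 4.42% an E2F-like site, 32.7% a GC box, 3.44% an amino acid response element and 6.02% an E-box. A match describes the letters and is neither a shown binding site nor a cause of what follows.

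Library totals were 449880 to 1264354 counts in the 25 AOM libraries and 480136 to 986415 in the 9 MC-38 libraries. The smallest counts of the 4 genes were 79 for Hells, 231 for Mki67, 227 for Shmt2 and 885 for Birc5. The 79 Hells counts, in MC-38 sash replicate 2, have an exact 95% Poisson interval of 62.5 to 98.5, which covers counting error only. Levels below are counts scaled to library size (CPM, a gene's share of its library) after TMM scaling, a scaling that sets the typical gene level across libraries. The AOM and MC-38 tables were scaled apart, and each amplicon has its own efficiency, so levels are compared neither across the tables nor between genes. Kit, the mutated gene, ran 112 to 143 CPM in sash lesions against 327 to 509.8 in wild-type lesions and 49.4 to 96.8 in sash tumours against 93.8 to 451 in wild-type tumours. The summed level of the 7 mast cell genes on the panel was 174.5 to 426 CPM in sash and 228 to 572 in wild-type AOM tumours, which overlap. Yet of the 5 that passed the filter there, 1 had a log2 difference above 0, sash against wild type, and their median was -1.06. In lesions the sum was 147 to 164 CPM in sash and 384 to 552 in wild-type mice, which do not overlap. Of the 2 genes that passed there, 0 had a log2 difference above 0. In MC-38 tumours Kit was at 6.01 to 18.6 CPM in wild-type and 2.02 to 23.2 in sash hosts, and the mast cell sum was 389.9 to 1170 CPM in wild-type and 10.1 to 34.9 in sash hosts. Epcam, the epithelial marker on the panel, was at 9711 CPM or more in every AOM library and at 3.32 CPM or less in every MC-38 library. Bulk RNA cannot tell fewer cells of a type from less RNA per cell.

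**Figure D1:**
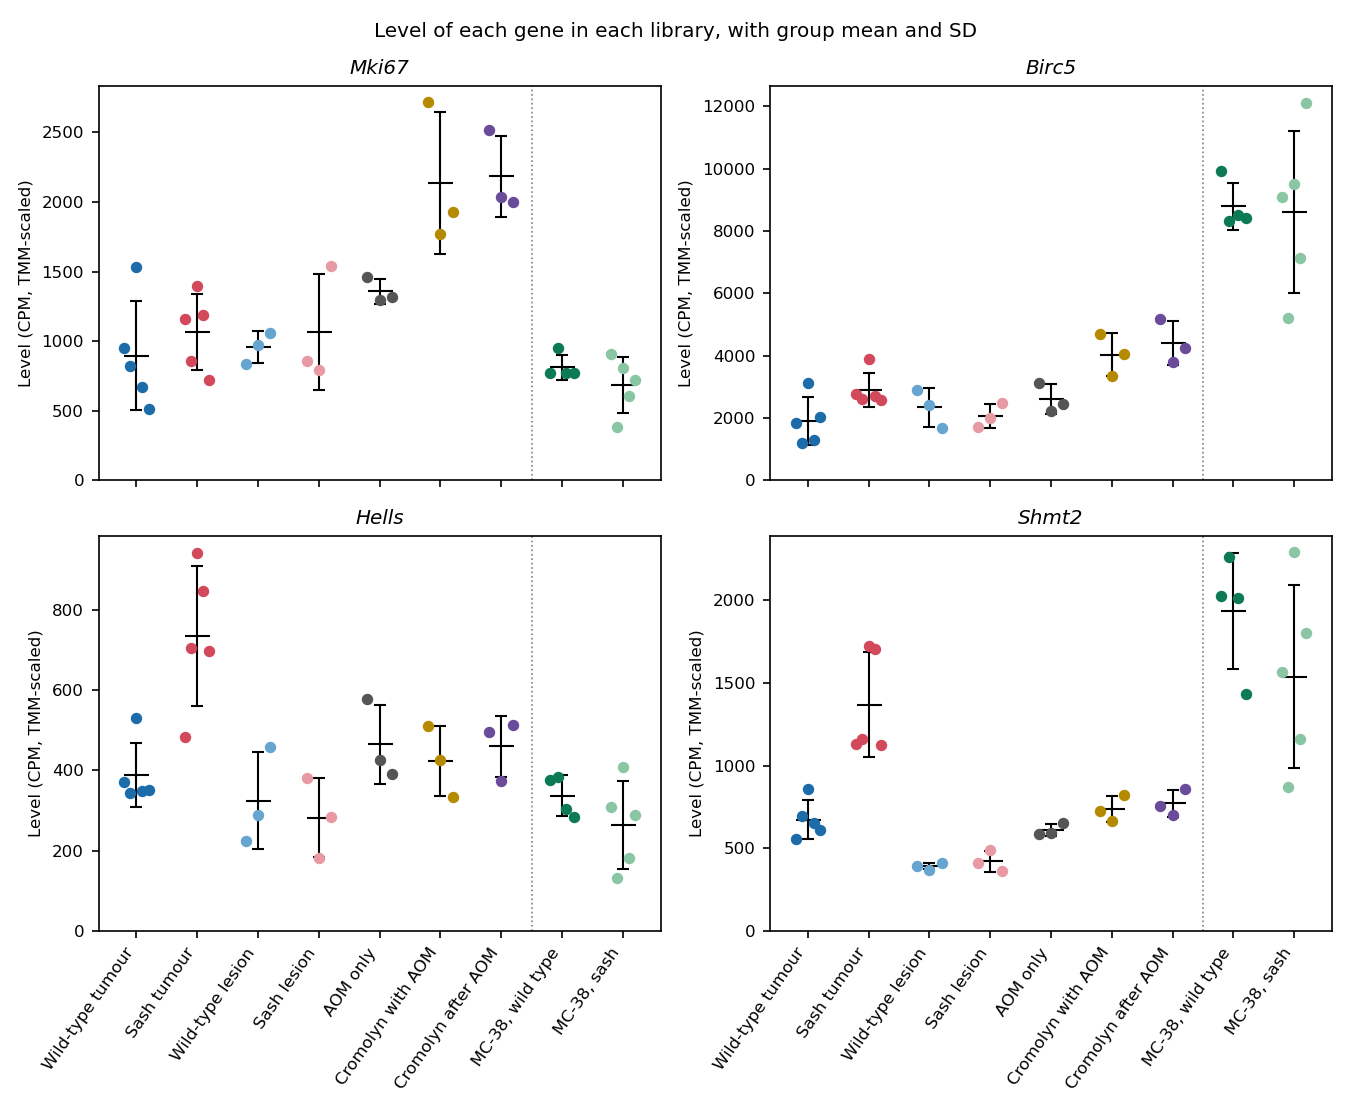
Level of each gene (y axis, TMM-scaled CPM, from 0) in each library by group (x axis). Points are libraries, the bar and whiskers are the mean and SD, and the dotted line separates the MC-38 table, which was scaled apart. Hells and Shmt2 stood highest among the AOM groups in sash tumours, and Mki67 and Birc5 in the 2 cromolyn groups.

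Across the 7 AOM groups the genes had different orders. Mki67 was highest after cromolyn, at 2183 ± 288 CPM (SD, n = 3) with cromolyn after AOM and 2137 ± 508 (n = 3) with cromolyn during AOM. These neighbours differed by less than their spread. AOM only followed at 1357 ± 87.9 (n = 3), and the 4 tumour and lesion groups, with means of 896.8 to 1065, overlapped one another. Birc5 was also highest in the cromolyn groups, at 4400 ± 698 (n = 3) and 4032 ± 679 (n = 3), followed by sash tumours at 2905 ± 552 (n = 5). Its lowest mean was that of wild-type tumours, 1899 ± 776 (n = 5), within the spread of both lesion groups. Hells was highest in sash tumours, at 735.5 ± 175 (n = 5), and the other 6 groups had means of 282 to 465, each overlapping its neighbours in that order. Shmt2 was highest in sash tumours, at 1368 ± 317 (n = 5), and lowest in the 2 lesion groups, at 390.7 ± 19.5 (n = 3) in wild-type and 420 ± 63.1 (n = 3) in sash mice. The cromolyn groups, wild-type tumours and AOM only stood between, at 607.7 to 772 CPM.

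Shmt2 was about 2 times as high in sash as in wild-type AOM tumours, Hells 1.85 times and Birc5 1.51 times, whereas Mki67 was 1.17 times as high. Shmt2, the one-carbon enzyme, was at 1129, 1158, 1723, 1707 and 1124 CPM in the sash tumours and at 553.7, 694, 858, 649.5 and 609.8 in the wild-type tumours. Every sash tumour was above every wild-type tumour, and the log2 difference was 0.99 (SE 0.18). Hells, the chromatin remodeller, was at 483, 705, 943.5, 848 and 697 CPM in sash and 370.2, 343, 530.4, 349 and 352 in wild-type tumours. Of the sash tumours, 4 of 5 were above all wild-type tumours, sash replicate 1 lay below wild-type replicate 3, and the log2 difference was 0.89 (SE 0.19). Birc5 was at 2761, 2622, 3883, 2694 and 2565 CPM in sash and at 1846, 1200, 3136, 1291 and 2020 in wild-type tumours. Only sash replicate 3 exceeded the highest wild-type tumour, and the log2 difference was 0.60 (SE 0.24). Mki67 overlapped fully, at 719.5 to 1398 CPM in sash and 511.5 to 1531 in wild-type tumours, with a log2 difference of 0.23 (SE 0.28). Wild-type tumour 3 was the highest wild-type tumour for all 4 genes. Of the 797 genes tested, 0, which is 0%, were called, meaning an adjusted p under 0.05 with edgeR. At an unadjusted p under 0.05 there were 159, and DESeq2 called 81. Every sash tumour was above every wild-type tumour in 3.51% of the genes tested. Nothing is read from these shares about the 4 genes, since this contrast chose members of the set.

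Beside this difference, summed markers of other cells moved as well. The 5 neutrophil genes on the panel summed to 519 to 912 CPM in sash and 72.6 to 363 in wild-type tumours, with no overlap. Surface colonocyte genes (Car4 and Tmigd1) summed to 101 to 1440 CPM in sash and 253 to 14290 in wild-type tumours, and macrophage and monocyte genes (6 on the panel) to 2641 to 3724 and 1330 to 3029. Their part in the result was not tested. Epcam was alike, at 23420 to 29760 CPM in sash and 21590 to 32990 in wild-type tumours. Wild-type tumour 2 had the highest B cell sum of the tumours (617 CPM, 7 genes) and wild-type tumour 4 the highest surface colonocyte sum (14290 CPM). Without these 2 tumours, a choice made after seeing the data, the Birc5 log2 difference was 0.34, that of Mki67 was 0.13, and those of Hells and Shmt2 were 0.84 and 1.05. Leaving out single tumours moved the Mki67 difference from 0.07 without wild-type tumour 5 and 0.11 without sash tumour 3 to 0.46 without wild-type tumour 3. Among other genes of the lists used, the division genes Cenpf (a kinetochore protein) and Cdc25c (a phosphatase that starts mitosis) differed by 0.12 and 0.26, and Ass1 (argininosuccinate synthase), from the list of one-carbon and nucleotide genes, by 0.46. The panel held 5 of 52 division genes listed, the 5 being Mki67, Birc5, Hells, Cenpf and Cdc25c. The median log2 difference was 0.26 over the 5 division genes, against -0.04 over all genes tested. Since the 5 include members and this contrast chose members of the set, nothing is read from that median.

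**Figure D2:**
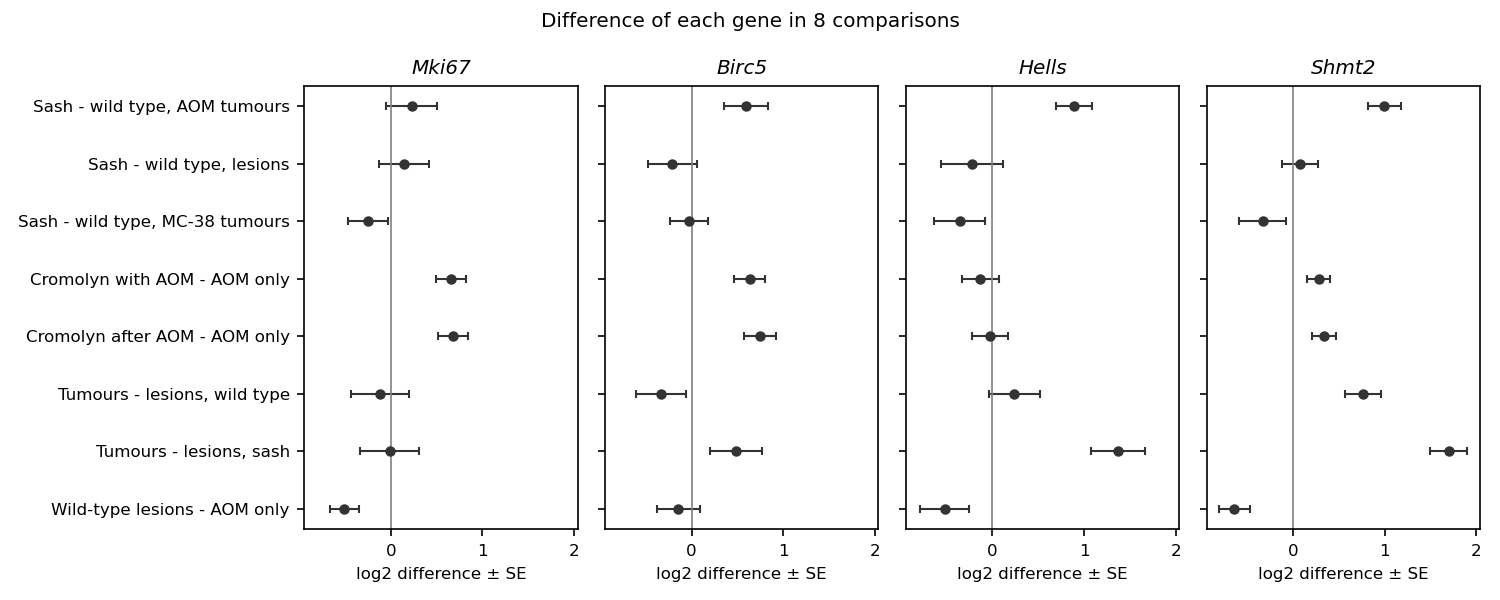
Log2 difference with its SE (x axis) of each gene in 8 comparisons (y axis), where the vertical line marks no difference. Shmt2 and Hells lay farthest right in the comparison of sash tumours with sash lesions, at 1.70 and 1.37, and Mki67 and Birc5 did so in the 2 cromolyn comparisons, at 0.63 to 0.75.

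Tumours were next set beside lesions of the same genotype, with no test for the 4 genes, since the tumour libraries are those on which Shmt2 and Hells were chosen. Shmt2 was 3.25 times as high in tumours as in lesions in sash mice and 1.70 times as high in wild-type mice, and Hells was 2.59 and 1.18 times as high. In sash mice Shmt2 went from 409.6, 488 and 363 CPM in lesions to 1124 to 1723 in tumours, and all 5 tumours were above all 3 lesions. Its log2 difference was 1.70 (SE 0.20). Hells in sash mice went from 381, 182.5 and 284 CPM to 483 to 943.5, again with no overlap and a log2 difference of 1.37 (SE 0.29). Birc5 was at 1712, 2013 and 2474 CPM in sash lesions and 2565 to 3883 in sash tumours. The groups did not overlap, and the log2 difference was 0.48 (SE 0.28). Mki67 in sash mice differed by -0.01 (SE 0.32) and overlapped, sash lesion 3 at 1542 CPM being above every sash tumour. In wild-type mice Shmt2 went from 392.7, 370.2 and 409 CPM in lesions to 553.7 to 858 in tumours, with no overlap and a log2 difference of 0.76 (SE 0.20). Hells differed there by 0.24 (SE 0.28), Mki67 by -0.12 (SE 0.32) and Birc5 by -0.33 (SE 0.28), with overlapping groups.

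These comparisons called many genes, 37% of 848 in wild-type and 47.5% in sash mice, and nothing is read from these shares about the 4 genes. In sash mice 26.9% of all genes tested had every tumour above every lesion, as did 3 of the 4. In wild-type mice 15.6% had this, and of the 4 only Shmt2 did. Of the division genes outside the set, neither Cenpf nor Cdc25c passed the test in either genotype. The median log2 difference of the 5 division genes, which include Mki67, Birc5 and Hells, was 0.10 in sash and -0.12 in wild-type mice. Over all genes tested it was 0.02 and -0.00, and nothing is read from these medians about the 4 genes. Gadd45a, a stress-induced brake on the cycle, fell by 1.01 on the log2 scale in sash mice (edgeR adjusted p = 0.0015) and by 0.57 in wild-type mice (0.048). Atm, the other of the 2 listed brakes on the panel, had a log2 difference above 0 in both genotypes and was not called. Age, the number of AOM injections and stage change together here and cannot be told apart. Surface colonocyte genes summed to 26930 to 61250 CPM across the lesions of both genotypes and to 101 to 14290 across the tumours. Neutrophil genes summed to 13.3 to 24.2 CPM across the lesions and 72.6 to 912 across the tumours. Cd44, the only 1 of 9 listed crypt stem and progenitor genes on the panel, was at 651 to 1358 and 1526 to 6923 CPM. For none of these 3 did lesions and tumours overlap, and the part of these markers in the result was not tested. Cd44 was also at 2185 CPM or more in every MC-38 library, where Epcam was at 3.32 CPM or less, so it does not mark crypt progenitors alone.

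The genotype difference at the lesion stage was below its SE for all 4 genes, and 0 of 4 were called, beside 2.84% of the 775 genes tested. Shmt2 was at 409.6, 488 and 363 CPM in sash and 392.7, 370.2 and 409 in wild-type lesions, which interleave. Its log2 difference was 0.08 (SE 0.20), with an edgeR adjusted p of 0.88. Hells was at 381, 182.5 and 284 CPM in sash and 225, 289.8 and 459 in wild-type lesions, with a log2 difference of -0.22 (SE 0.34, edgeR adjusted p = 0.80). Birc5 differed by -0.21 (SE 0.27, edgeR adjusted p = 0.75), from 1712, 2013 and 2474 CPM in sash to 2908, 2432 and 1686 in wild-type lesions. Mki67 differed by 0.14 (SE 0.28, edgeR adjusted p = 0.84), at 857, 795 and 1542 CPM against 837, 975.7 and 1062. With the replicate number as a block, 84 genes in place of 22 were called, and again 0 of the 4. No label pairs the lesion libraries, and this pairing was taken from the same data, so nothing is read from the 84. Over 14 other settings, leaving out single libraries included, the log2 difference of Mki67 ran from -0.27 to 0.61. That of Birc5 ran from -0.41 to 0.27, that of Hells from -0.46 to 0.09 and that of Shmt2 from -0.03 to 0.37. Without sash lesion 3 the Mki67 difference turned to -0.27, without sash lesion 2 the Hells and Shmt2 differences turned to 0.03 and -0.03, without wild-type lesion 1 the Birc5 difference turned to 0.03, and without wild-type lesion 3 that of Hells turned to 0.09.

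The genotype difference in tumours minus that in lesions, on the log2 scale, was 1.13 (SE 0.39) for Hells, 0.93 (SE 0.27) for Shmt2, 0.82 (SE 0.39) for Birc5 and 0.10 (SE 0.45) for Mki67. These values hold the contrast that chose members of the set and carry no test. Over all 848 genes, 0, or 0%, were called by edgeR for this difference of differences, 128 had an unadjusted p under 0.05, and DESeq2 called 19.

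Cromolyn after AOM came with more Mki67 and Birc5 than AOM only, by 1.60 and 1.68 times, and Hells did not differ beyond its error. Mki67 was at 2516, 2033 and 2001 CPM with cromolyn after AOM and at 1458, 1298 and 1315 with AOM only, with no overlap. Its log2 difference was 0.68 (SE 0.16) and its edgeR adjusted p 0.040. Birc5 was at 5161, 3788 and 4252 CPM against 3137, 2227 and 2442, again with no overlap, a log2 difference of 0.75 (SE 0.17) and an edgeR adjusted p of 0.035. Hells was at 495, 373 and 513 CPM against 577, 426 and 391, which overlap, and differed by -0.02 (SE 0.20, edgeR adjusted p = 0.96). Shmt2 was at 756.5, 700.3 and 860 CPM against 584.8, 588.8 and 649. Its groups did not overlap, but the log2 difference of 0.34 (SE 0.13) did not pass the test (edgeR adjusted p = 0.15). So 2 of the 4 genes were called, beside 4.82% of the 768 genes tested, and 13.3% of those genes had all 3 cromolyn libraries above all 3 controls, as did 3 of the 4. Of the 5 division genes on the panel, 3 rose, namely the members Birc5 and Mki67 and, outside the set, Cenpf. Cenpf rose by 0.80 on the log2 scale (SE 0.21, edgeR adjusted p = 0.047). Cdc25c differed by 0.68 (SE 0.25, edgeR adjusted p = 0.14).

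Both calls were close to the threshold and rested on all 6 libraries. Leaving out any one of them gave an edgeR adjusted p of 0.060 to 0.14 for Mki67 and 0.053 to 0.13 for Birc5, while the log2 differences stayed at 0.57 to 0.76 and 0.62 to 0.92. Scaling by the 3 housekeeping genes on the panel gave 0.057 for Mki67, and fitting all 25 AOM libraries together gave 0.56 for Mki67 and 0.41 for Birc5 by edgeR.

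With cromolyn given during AOM the same controls were used. Mki67 was at 2716, 1767 and 1927 CPM, all 3 libraries above the AOM-only range of 1298 to 1458. The log2 difference was 0.66 (SE 0.17), and the edgeR adjusted p of 0.072 did not pass. Birc5 was at 4700, 3342 and 4055 CPM, all above the AOM-only range of 2227 to 3137, with a log2 difference of 0.63 (SE 0.17, edgeR adjusted p = 0.092). Hells was at 510, 426 and 334 CPM against 391 to 577 in AOM only, and differed by -0.13 (SE 0.20, edgeR adjusted p = 0.74). Shmt2 was at 724, 666 and 819 CPM, above the AOM-only range of 584.8 to 649, and differed by 0.28 (SE 0.13, edgeR adjusted p = 0.30). Here 0 of 4 were called by edgeR, beside 0.26% of the 768 genes tested; 128 of those genes had an unadjusted p under 0.05, Mki67 and Birc5 among them, and DESeq2 called 42. All 3 cromolyn libraries were above all 3 controls in 12.8% of the genes tested. Of the division genes outside the set, Cenpf differed by 0.69 (SE 0.21, edgeR adjusted p = 0.13). Cdc25c differed by 0.25 (SE 0.25, edgeR adjusted p = 0.60). DESeq2 gave an adjusted p of 0.015 for Mki67 and 0.023 for Birc5, and scaling to library totals gave 0.042 and 0.036 by edgeR. Mki67 also passed without cromolyn replicate 2 (edgeR adjusted p = 0.036), and scaling by the housekeeping genes brought the log2 differences down to 0.34 and 0.33 and that of Shmt2 to -0.06.

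Other cells' markers differed beside these values. The 7 mast cell genes on the panel summed to 394 to 484 CPM with AOM only, 536 to 777 with cromolyn after AOM and 376 to 649 with cromolyn during AOM. Only the sums with cromolyn after AOM lay above all controls. Of the 7, 2 passed the filter on low counts. In each cromolyn comparison both had a log2 difference above 0 and 0 were called. The 7 B cell genes on the panel summed to 147 to 362 CPM with AOM only, 311 to 1873 with cromolyn after AOM and 467 to 2125 with cromolyn during AOM. Surface colonocyte genes summed to 31830 to 47020 CPM with AOM only, 8898 to 23970 with cromolyn after and 12560 to 33720 with cromolyn during AOM. Of these 2 genes, 1 had a log2 difference above 0 with cromolyn after AOM, where Car4 was at -1.25, and 0 with cromolyn during AOM. Epcam ran 16180 to 18220 CPM with AOM only, 12130 to 15290 after and 9711 to 16550 during. The endothelial genes Cd34 and Kdr summed to 856 to 1170 CPM with AOM only, 526 to 655.5 with cromolyn after and 564 to 762 with cromolyn during AOM, overlapping the controls in neither. Cd34 fell with cromolyn after AOM by 0.87 on the log2 scale (edgeR adjusted p = 0.033). The 4 fibroblast and matrix genes summed to 13150 to 15360 CPM with AOM only, 10100 to 11050 after and 9080 to 13630 during, and the 5 neutrophil genes to 55.4 to 68.5, 12.4 to 36.2 and 44.5 to 61.5. Thus fibroblast and neutrophil sums were below the controls with no overlap for cromolyn after AOM and overlapped them for cromolyn during AOM. Yet 2 of the 4 fibroblast genes had a log2 difference above 0 with cromolyn after AOM. Of the 5 neutrophil genes, 1 passed the filter on low counts, and 1 held 0 counts in each of these groups. The cromolyn library with the highest Mki67 of each group was replicate 1, whose B cell sum was the lowest of the group given cromolyn after AOM (311 CPM) and the highest of the group given it during AOM (2125 CPM). The part of these markers in the result was not tested.

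**Figure D3:**
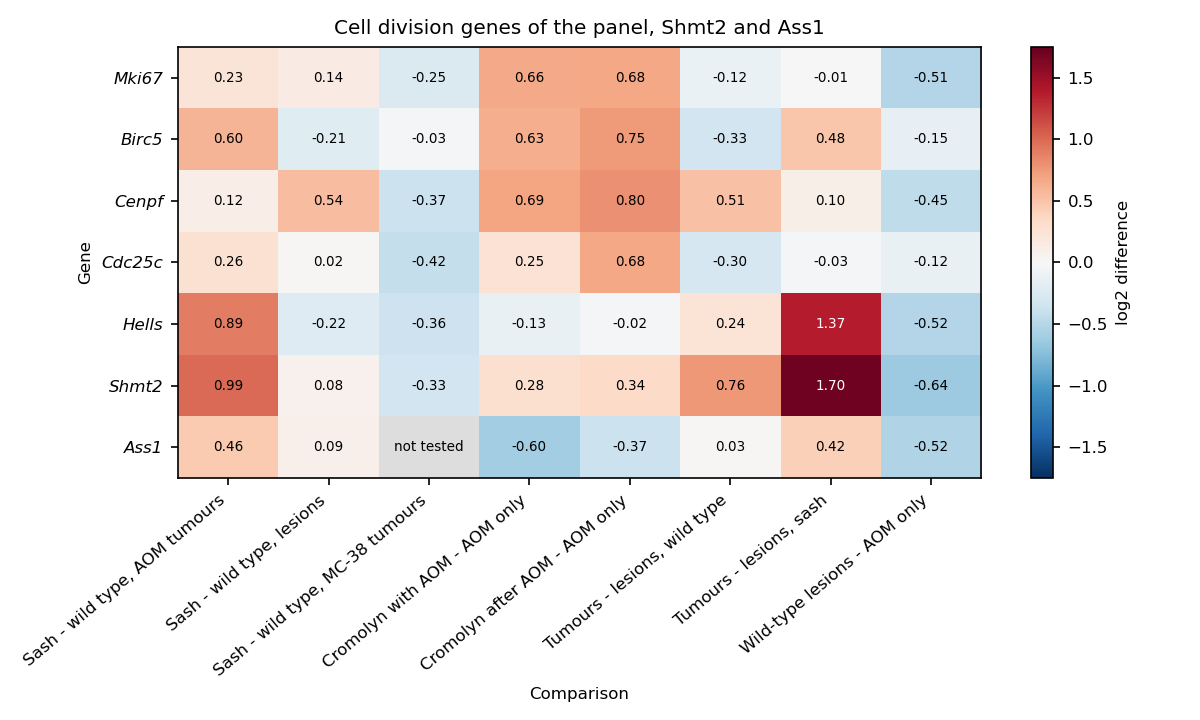
Log2 difference (colour and printed value) of the 5 cell division genes of the panel, Shmt2 and Ass1 (rows) in 8 comparisons (columns), where grey marks a gene that did not pass the filter. The first 3 rows share values of 0.63 to 0.80 in the cromolyn columns. In those columns Cdc25c is at 0.25 and 0.68, and Hells at -0.13 and -0.02. Hells and Shmt2 hold 1.37 and 1.70 in the column of sash tumours minus sash lesions.

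Wild-type lesions and the AOM-only group have the same labelled strain, age, genotype and treatment, and belong to different experiments. Their comparison shows how far the 4 genes lie apart with no labelled difference. Shmt2 was at 392.7, 370.2 and 409 CPM in wild-type lesions and 584.8, 588.8 and 649 in AOM only. Its groups did not overlap, and its log2 difference was -0.64 (SE 0.17) with an edgeR adjusted p of 0.032. Mki67 was at 837 to 1062 CPM against 1298 to 1458, also with no overlap, and differed by -0.51 (SE 0.16, edgeR adjusted p = 0.056). Hells differed by -0.52 (SE 0.27, edgeR adjusted p = 0.20) and Birc5 by -0.15 (SE 0.24, edgeR adjusted p = 0.70), both with overlap. So 1 of 4 was called beside 15.6% of the 762 genes tested, and 21.3% of those genes had every lesion below every AOM-only library. The Shmt2 call was lost on leaving out any one library except wild-type lesion 3 (edgeR adjusted p = 0.063 to 0.15). Without wild-type lesion 3, Mki67 and Hells passed too, with edgeR adjusted p-values of 0.014 and 0.018. Mki67 also passed with DESeq2 (adjusted p = 0.046), with genes of a mean of at least 50 counts (edgeR adjusted p = 0.046) and with housekeeping scaling. The last gave log2 differences of -1.04 for Mki67 and -0.99 for Hells, with edgeR adjusted p-values of 0.025 and 0.038, and moved the median of all genes to -0.57. Markers differed between these groups as well, with no overlap in the sums of B cells (674 to 2374 CPM in wild-type lesions and 147 to 362 in AOM only), fibroblasts (2325 to 7397 and 13150 to 15360), endothelium (287 to 587 and 856 to 1170) and neutrophils (13.3 to 24.2 and 55.4 to 68.5). Of the 4 fibroblast genes 1 had a log2 difference above 0, and of the 5 neutrophil genes 1 passed the filter. The part of these markers in the result was not tested. For Mki67 the log2 difference between these groups of alike labels was -0.51, beside 0.66 and 0.68 in the cromolyn comparisons.

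In MC-38 tumours the differences of the 4 genes by host genotype were within the spread, and 0 of 4 were called beside 1.26% of the 714 genes tested. Shmt2 was at 1566, 870, 2291, 1160 and 1802 CPM in sash hosts and at 2029, 2265, 2013 and 1435 in wild-type hosts. The log2 difference was -0.33 (SE 0.25, edgeR adjusted p = 0.46). Hells was at 309.5, 131, 409, 180.3 and 289 CPM in sash and 377, 384.7, 304 and 284 in wild-type hosts, a difference of -0.36 (SE 0.28, edgeR adjusted p = 0.47). Mki67 was at 906, 384, 809.6, 604 and 723 CPM against 768, 949, 769.8 and 769, a difference of -0.25 (SE 0.22, edgeR adjusted p = 0.53). Birc5 was at 9094, 5202, 9521, 7141 and 12100 CPM against 9926, 8319, 8507 and 8420, a difference of -0.03 (SE 0.21, edgeR adjusted p = 0.96). Sash replicates 2 and 5 were the lowest and second lowest of the sash group for all 4 genes. Without sash replicate 2 alone the log2 differences were -0.08 for Mki67, -0.17 for Hells, -0.16 for Shmt2 and 0.12 for Birc5.

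The same 2 MC-38 libraries had the highest sums of T cell and fibroblast genes in the sash group. The 9 T cell genes summed to 4113 and 3893 CPM in replicates 2 and 5 and to 2301 to 3099 in the other 3 sash libraries. The 4 fibroblast and matrix genes summed to 32580 and 23710 CPM in those replicates and to 11110 to 17700 in the others. Sums of neutrophil genes and of macrophage and monocyte genes were also highest there. The endothelial genes Cd34 and Kdr went the other way, with sums of 6687 and 8067 CPM in those replicates and 10440 to 12380 in the others. The part of host cells in the level of the 4 genes was not tested.

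Ratios of 2 genes within a library need no scaling, since both counts share the library total. Hells over Mki67 was 0.30 to 0.40 with AOM only, 0.17 to 0.24 with cromolyn during AOM and 0.18 to 0.26 with cromolyn after AOM, so neither cromolyn group overlapped the shared controls. Mki67 over Birc5 was 0.46 to 0.58, 0.48 to 0.58 and 0.47 to 0.54 in the same groups, all overlapping. Hells over Mki67 spanned 0.27 to 0.43 among wild-type lesions and 0.18 to 0.44 among sash lesions, and in tumours 0.35 to 0.69 and 0.42 to 0.97. Shmt2 over Mki67 was 0.38 to 0.47 in wild-type and 0.24 to 0.61 in sash lesions, and 0.56 to 1.19 and 0.97 to 1.56 in tumours. For Shmt2 over Mki67, tumours and lesions did not overlap in either genotype. These ratios are given with no test, and their size depends on the 2 amplicons.

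**Figure D4:**
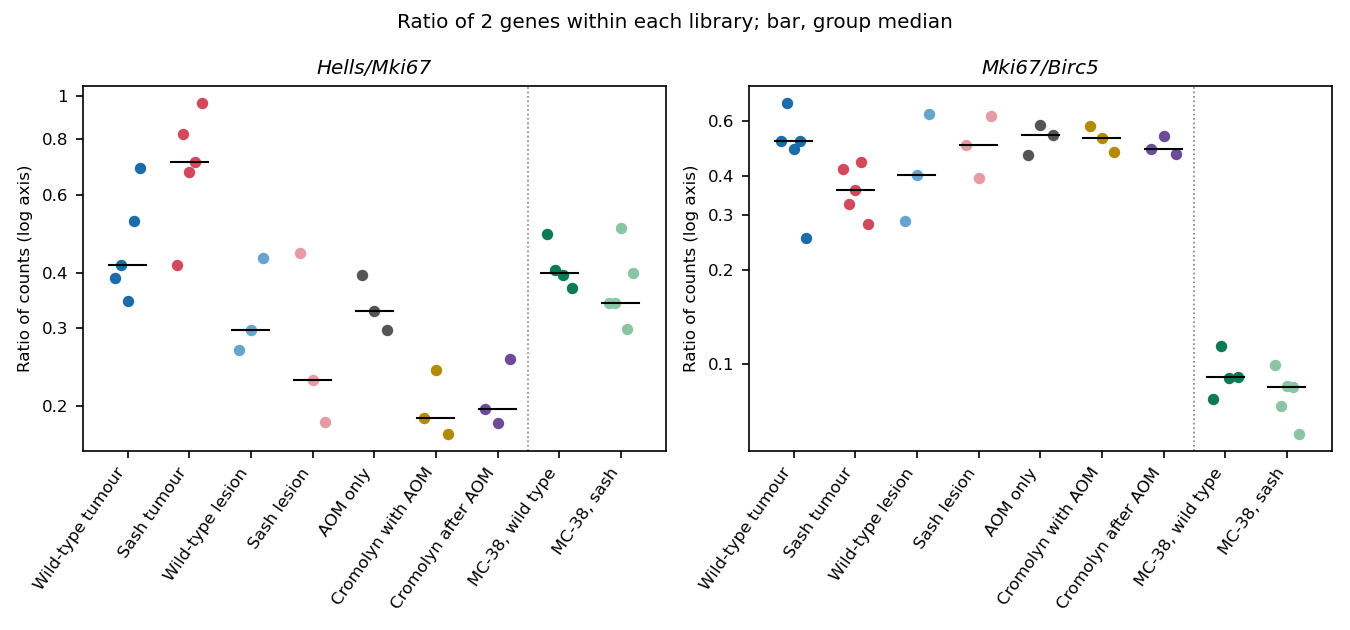
Ratio of counts of 2 genes (y axis, log scale) in each library by group (x axis), with the group median as a bar and the MC-38 table right of the dotted line. Hells over Mki67 was lower in both cromolyn groups (0.17 to 0.26) than with AOM only (0.30 to 0.40), whereas Mki67 over Birc5 overlapped between those groups.

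Likeness between genes across the 25 AOM libraries is described by Pearson r of log2(CPM + 1), with no p. These libraries share groups and scaling, so r within groups, after subtracting group means, is given beside it. The genes most like Mki67 among 805 ranked were Cdc25c (r = 0.83, within groups 0.64), Cenpf (0.81, within groups 0.80) and Birc5 (0.80, within groups 0.55). Those most like Birc5 were Cdc25c (0.85, within groups 0.71), Mki67, and Fam111a (0.78, within groups 0.46), a protease that acts at replication forks. The genes most like Hells were Shmt2 (0.80, within groups 0.30), G0s2 (0.72, within groups 0.32) and the interleukin 1 receptor Il1r1 (0.70, within groups 0.44). Those most like Shmt2 were the neutrophil receptor Fpr1 (0.81, within groups 0.19), the chemokine Ccl4 (0.81, within groups 0.03) and Hells. So the likeness of Shmt2 to Hells, Fpr1 and Ccl4 lay mostly between groups, sash tumours being high in all 4, while that of Mki67 to Cenpf was as high within groups. Over all libraries r of Mki67 was 0.24 with Hells and 0.17 with Shmt2. Within groups these were 0.45 and 0.35, above the 0.30 of Hells with Shmt2.

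In the 9 MC-38 libraries all 6 pairs of the 4 genes had r from 0.74 to 0.96, with Hells and Shmt2 highest at 0.96. Within groups these were 0.76 to 0.95. Hells, which went with G0s2 and Il1r1 in the AOM libraries, had r of -0.90 and -0.89 with them in MC-38, and Shmt2 had -0.87 with Ccl4. The MC-38 libraries share 1 cell line, and replicates 2 and 5 of the sash hosts lie at the low end of each pair.

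**Figure D5:**
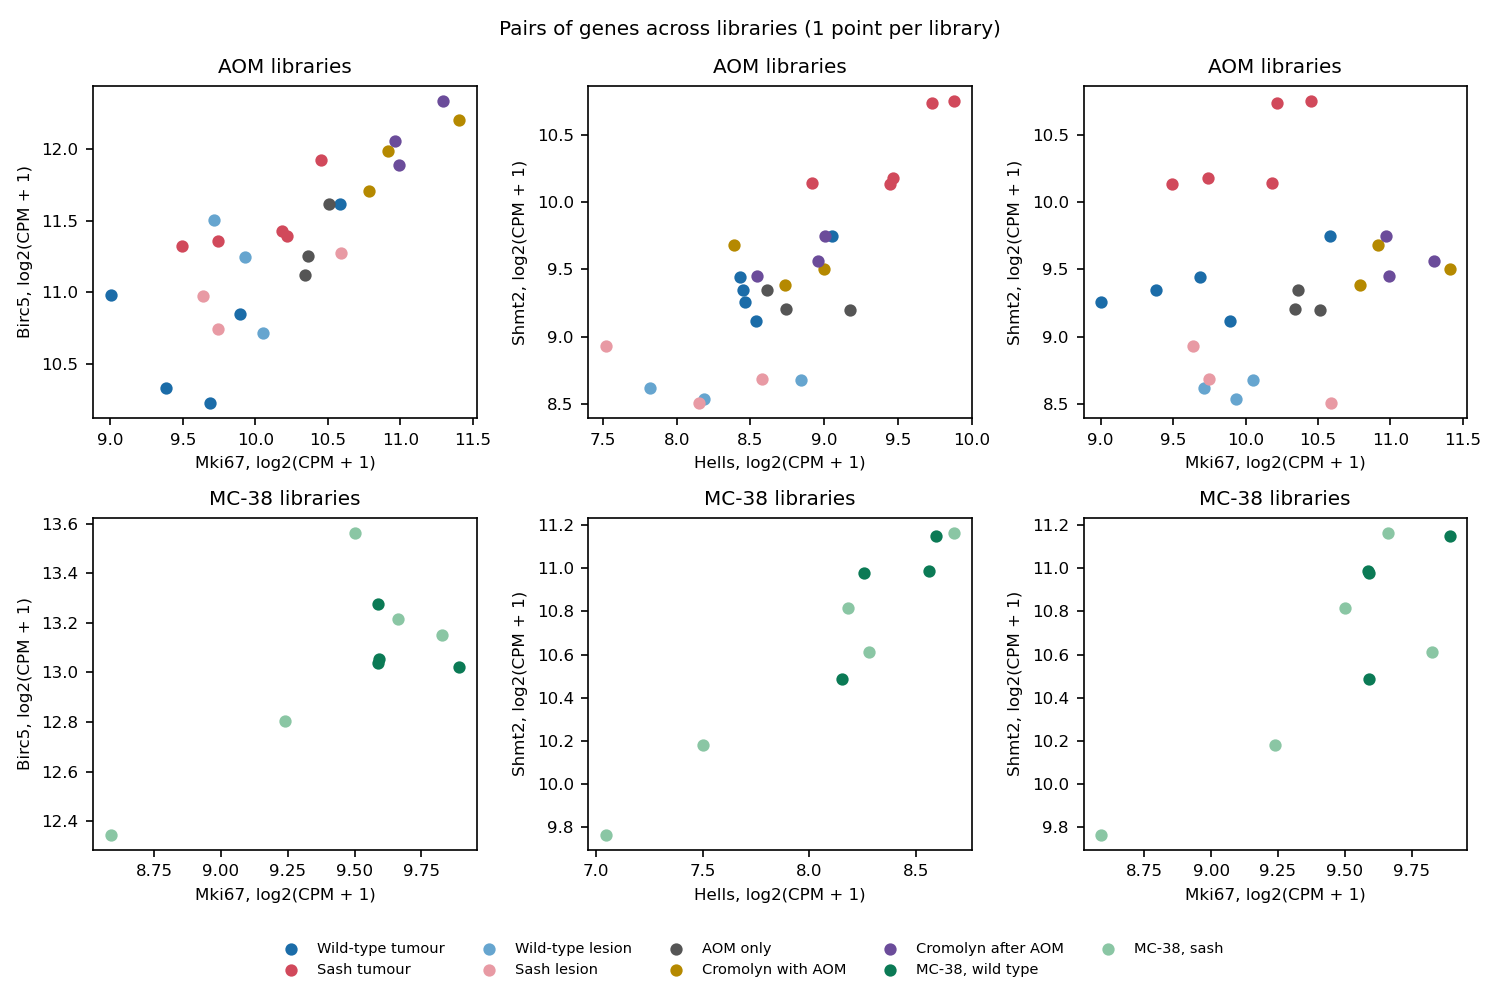
Pairs of genes as log2(CPM + 1) on both axes, with 1 point per library coloured by group, for 25 AOM libraries (top) and 9 MC-38 libraries (bottom). In the AOM libraries sash tumours stand apart as high in Shmt2 at middling Mki67 (r = 0.17), whereas in MC-38 libraries the genes run together (r = 0.74 to 0.96).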

How the data were processed

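RNA of colon tumours, lesions and MC-38 tumours was read with the QIAseq Targeted RNAseq Mouse Immuno-Oncology panel. The authors deposited whole-number counts per gene in 1 table for the AOM libraries and another for MC-38, with build mm9 and DESeq2 named per the submitters' processing notes. For the aligner, the counting step and molecular identifiers, details were not given in the sources used here. If identifiers were not used, counts are reads that PCR may have multiplied.

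Of 36 samples in 9 groups, 34 were matched to columns by their labels. The 5 control entries, which held 0 counts, were left out. Each comparison was tested with edgeR 4.0.16 in R 4.3.3 (TMM scaling, filterByExpr with a minimum count of 10 and total of 15, quasi-likelihood fit with robust settings), and p-values were adjusted by Benjamini-Hochberg over all genes tested at a threshold of 0.05. The SE is the log2 difference divided by the square root of F. The spread was estimated within the groups compared, except that the 3 groups of the cromolyn experiment, and the 4 tumour and lesion groups for stage, shared 1 estimate. DESeq2 1.42.0 was an alternative, as were other scalings and filters, a replicate block, a fit of all libraries and leaving out each library. On simulated AOM tumour counts (801 genes), edgeR recovered 54 of 100 genes changed by 1 on the log2 scale and 98 of 100 changed by 2. Both sets were changed in the same run, which also gave 7 false calls. Many changed genes ease the adjusted threshold, so this recovery need not hold for the real comparison. Replicates differed from each other by a chi-square per degree of freedom of 5.85 to 194 over 51 pairs, so no library was counted as a duplicate.

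The members and the gene lists were chosen with earlier results of these data known. Named besides the members are listed genes by rule (at most 3 per list and comparison, by smallest p), the 3 genes most like each member and Kit; Cdc25c, Cenpf and Ass1 are further members of their lists, and Gadd45a and Car4 with Tmigd1 are named as list members. The lists were division, one-carbon, growth, brakes, apoptosis, chromatin and housekeeping genes, 19 of 135 names being on the panel. Of the growth list Erbb2 was on the panel, and it fell in sash tumours against sash lesions. Of the 5 apoptosis genes on the panel, 3 were called in the wild-type and 2 in the sash stage comparison and 0 in the other 7. Of the 2 brakes, Gadd45a was called in both stage comparisons and Atm in wild-type lesions against AOM only. The chromatin list held only Hells, and the housekeeping list B2m, Rpl13a and Tfrc, of which B2m was called in lesions, both stage comparisons and wild-type lesions against AOM only. Same-numbered lesion libraries deviated together (r of 0.13 to 0.50 over 3 pairs), so the block pairs them from the data, no label stating what the number marks. Not analysed here were 2 MC-38 samples, and 1 listed gene is not reported here.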

Additional observations from a re-analysis of the deposited data

Results flagged for a closer look

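In 4 of the 16 combinations of gene and group of 4 or 5 libraries, 1 library stood apart from its group by Dixon's criterion, which chance alone meets in about 1 in 20. Mki67 was 949 CPM in wild-type MC-38 replicate 3, whose gap to the next library was 0.99 of the group's range. Birc5 was 9926 CPM in wild-type MC-38 replicate 1 (0.88 of the range). Birc5 was 3883 CPM in sash AOM tumour 3 (0.85 of the range), and Hells was 530.4 CPM in wild-type AOM tumour 3 (0.85 of the range). Wild-type AOM tumour 3 was also the highest of its group for Mki67, Birc5 and Shmt2. Without it the log2 difference between sash and wild-type tumours was 0.46 for Mki67, 0.81 for Birc5, 0.98 for Hells and 1.05 for Shmt2.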

How the results depend on the processing

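Counts of genes called by edgeR moved by over 1.5 times as follows. In AOM tumours 0 became 81 with DESeq2, 2 with library totals, 88 with all AOM libraries in 1 fit and 6 without wild-type tumours 2 and 4. In lesions 22 became 72 with DESeq2, 36 with no filter and 84 with the replicate block. In MC-38 tumours 9 became 48 with DESeq2, 14 with housekeeping scaling and 3 with the replicate block. For cromolyn during AOM 2 became 42 with DESeq2, 18 with library totals, 39 with housekeeping scaling, 1 with a mean of at least 50 counts, 7 with the replicate block and 0 with all libraries. For cromolyn after AOM 37 became 56 with DESeq2, 20 with housekeeping scaling, 22 with a mean of at least 50 counts, 21 with the replicate block and 0 with all libraries. The stage counts of 314 (wild-type) and 403 (sash) became 186 and 257 with housekeeping scaling. The difference of differences went from 0 to 19 with DESeq2, 4 with all libraries and 8 without wild-type tumours 2 and 4. Wild-type lesions against AOM only went from 119 to 212 with housekeeping scaling. Leaving out 1 library gave 0 to 17 in AOM tumours, 0 to 68 in lesions, 3 to 17 in MC-38, 0 to 15 and 1 to 8 for cromolyn during and after AOM, 183 to 367 and 298 to 389 for stage in wild-type and sash mice, 0 to 10 for the difference of differences and 11 to 268 for wild-type lesions against AOM only. The cause of these shifts was not tested. Leaving out wild-type tumours 2 and 4 was chosen after seeing the data.

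Higher and lower calls split as 4 and 18 in lesions (6 and 15 with housekeeping scaling), 5 and 4 in MC-38 (11 and 3 with housekeeping scaling, 6 and 3 with library totals), 1 and 1 for cromolyn during AOM (4 and 35, 17 and 1), 18 and 19 after AOM (14 and 6, 20 and 8), 165 and 149 for wild-type stage (159 and 27, 223 and 90), 203 and 200 for sash stage (158 and 99, 254 and 150), and 66 and 53 for wild-type lesions against AOM only (29 and 183 with housekeeping scaling). Housekeeping scaling, which rests on B2m, Rpl13a and Tfrc, moved the median log2 difference of all genes to 0.37 in lesions, 0.16 in MC-38, -0.36 for cromolyn during AOM, 0.39 and 0.21 for stage, -0.22 for the difference of differences and -0.57 for wild-type lesions against AOM only. Library totals moved it to 0.22 and 0.21 for stage and 0.12 for cromolyn after AOM.

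Outside lesions, the lowest r of same-numbered libraries' deviations was 0.06 or less in each comparison checked, and no label states what the number marks. In MC-38 tumours r ran from -0.03 to 0.63 over 3 pairs, the highest being above that of any lesion pair. Outside lesions the block changed the calls of Birc5 for cromolyn during AOM (edgeR adjusted p = 0.044) and of Shmt2 in wild-type lesions against AOM only (0.057). It changed no other call of the 4 genes in the comparisons tested. Mki67 changed sign with housekeeping scaling in the wild-type (0.23) and sash (0.02) stage comparisons and in the difference of differences (-0.22), and Birc5 in lesions (0.27), in MC-38 (0.12) and in the wild-type stage comparison (0.08). Hells changed sign with it in lesions (0.03) and for cromolyn after AOM (0.05). With library totals, Mki67 was at 0.09 and 0.14 in the stage comparisons, Hells at 0.11 for cromolyn after AOM and Birc5 at 0.01 in MC-38.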
